A study of Mus musculus with 3 samples.

Results

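Mouse embryonic fibroblasts (MEFs) were compared after 2 days and after 1 day of reprogramming, using 6 CEL-Seq2 libraries of the 129 library columns in the count table, 3 of Day02 and 3 of Day01. CEL-Seq2 reads the 3′ end of each poly(A) RNA and counts molecules by unique molecular identifiers (UMIs). The 6 libraries were chosen by the day in their names, and each day has 1 library in each of 3 sequenced pools (replicates 1 to 3). Both groups were BL6 MEFs that carried a doxycycline-inducible lentiviral cassette of Oct4, Sox2, Klf4 and c-Myc (OSKM) together with the rtTA transactivator, were re-plated on gelatin and received no siRNA. Both were kept in medium with doxycycline, LIF, ascorbic acid, the TGF-beta receptor inhibitor Alk5i and the GSK3 inhibitor chiron. The groups therefore differed by 1 day of factor expression and of culture in this medium. The cassette was delivered by transduction of primary cells and no selection of a clone is described, so a library can mix cells with and without it. The paper calls the replicates independent RNA sequencing replicates, but nothing in the labels states whether the 3 pools came from separate cultures. The p-values rest on the spread between libraries of the same condition over all 122 fitted libraries, which may be technical.

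OSKM expression changes fibroblasts in steps. Somatic programmes such as the contractile cytoskeleton and the collagen matrix are lowered early, proliferation and metabolism shift, and epithelial genes rise before the pluripotency network is switched on. A mesenchymal-to-epithelial transition (MET) lies at the centre of the early phase. The paper stains CDH1, which is epithelial, and SALL4, an early pluripotency marker, to follow early reprogramming. The step from day 1 to day 2 falls before colonies appear. Because the libraries hold bulk RNA, fewer cells of a type and less RNA of a gene per cell cannot be told apart in any of the values that follow.

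The 6 libraries held between 38784 and 111119 UMIs, with 7212 to 10174 genes detected in each. In the shallowest, Day01 replicate 1, 1 UMI was worth 23.0 normalised CPM (UMI counts scaled to a common library total), so that only abundant genes were measured well. Mitochondrially encoded genes took 10.8% to 12.5% of the UMIs on day 1 and 16.4% to 17.8% on day 2, without overlap (means 11.5% and 17.1%, exact two-sided permutation test p = 0.1, which is the smallest p that 3 against 3 libraries allow). The scaling factors (TMM) differed as well, from 1.38 to 1.44 on day 1 and from 1.15 to 1.23 on day 2. The fibroblast marker list summed to 3023 to 3599 normalised CPM on day 1 and 2981 to 3148 on day 2. Of its 6 tested genes, Col3a1 was called higher and Vim lower, and Col1a1, Col1a2, Dcn and Thy1 were not called. Summed over the other marker lists, macrophage genes gave 57.2 to 82.9 and 43.8 to 85.1 normalised CPM per library on days 1 and 2, neural and glial genes 252 to 260.4 and 208 to 380.2, and endothelial, keratinocyte, skeletal muscle, erythroid and adipocyte genes at most 37.8.

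Of 3002 genes tested, 117 were higher and 41 lower on day 2 than on day 1 (edgeR quasi-likelihood test, adjusted p under 0.05), that is 3.9% and 1.37% of the tested genes and 5.26% together, and 484 (16.1%) had an unadjusted p under 0.05. Fold changes are given as log2 of day 2 over day 1 with their standard error (SE). The median change of the higher genes was 1.02 and of the lower genes -1.25, beside 0.07 over all tested genes, of which 55.2% were fitted above 0. Of the 158 called genes, 137 had no overlap between the 2 days: all day 2 libraries lay above all day 1 libraries in 100 genes and below them in 37, where 11.3% and 7.79% of all tested genes were so separated. The balance of the directions depended on the processing. With TMM 74.1% of calls were higher, and with the size factors of DESeq2 in edgeR 57.6% (76 higher, 56 lower). Leaving out mitochondrially encoded genes before scaling gave 63.8% (81 and 46). The deposited log2 values gave 59.3% (51 and 35), and the median of all genes moved by -0.23. There the test differed too, and the batch had been regressed out. With TMM kept, the share was 60.5% without Day01 replicate 3 and 84.3% without the replicate block. Calls also rested on the replicate block, without which 43 genes were higher and 8 lower, all 51 of them among the 158. Leaving out a single library gave 46 to 95 higher and 18 to 39 lower genes. The lowest count of higher genes came without Day01 replicate 2 (46 and 21), followed by Day01 replicate 3 (49 and 32), and the lowest of lower genes without Day02 replicate 1 (76 and 18); without Day02 replicate 3 there were 84 and 21. A share of 27 of the 117 and 7 of the 41 calls was kept whichever single library was left out.

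Lower on day 2 were 5 of 23 tested mitosis genes, 2 of 12 replication genes and 4 of 7 tubulins. So were 3 of 27 genes of the ribosome biogenesis and MYC response list, Acta2, Lox, Timp1 and Vim. Higher were 8 of 17 mitochondrially encoded genes, 10 of 76 ribosomal proteins, 5 of 50 subunits of the respiratory chain, 4 of 14 fibroblast surface genes, 2 genes each of the antioxidant, p53 and interferon lists, and further genes of other lists or of none. Apart from ribosomal proteins and the fibroblast surface and marker lists, no list had calls in both directions. The list medians below are to be read against the 0.07 of all tested genes.

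**Figure D1:**
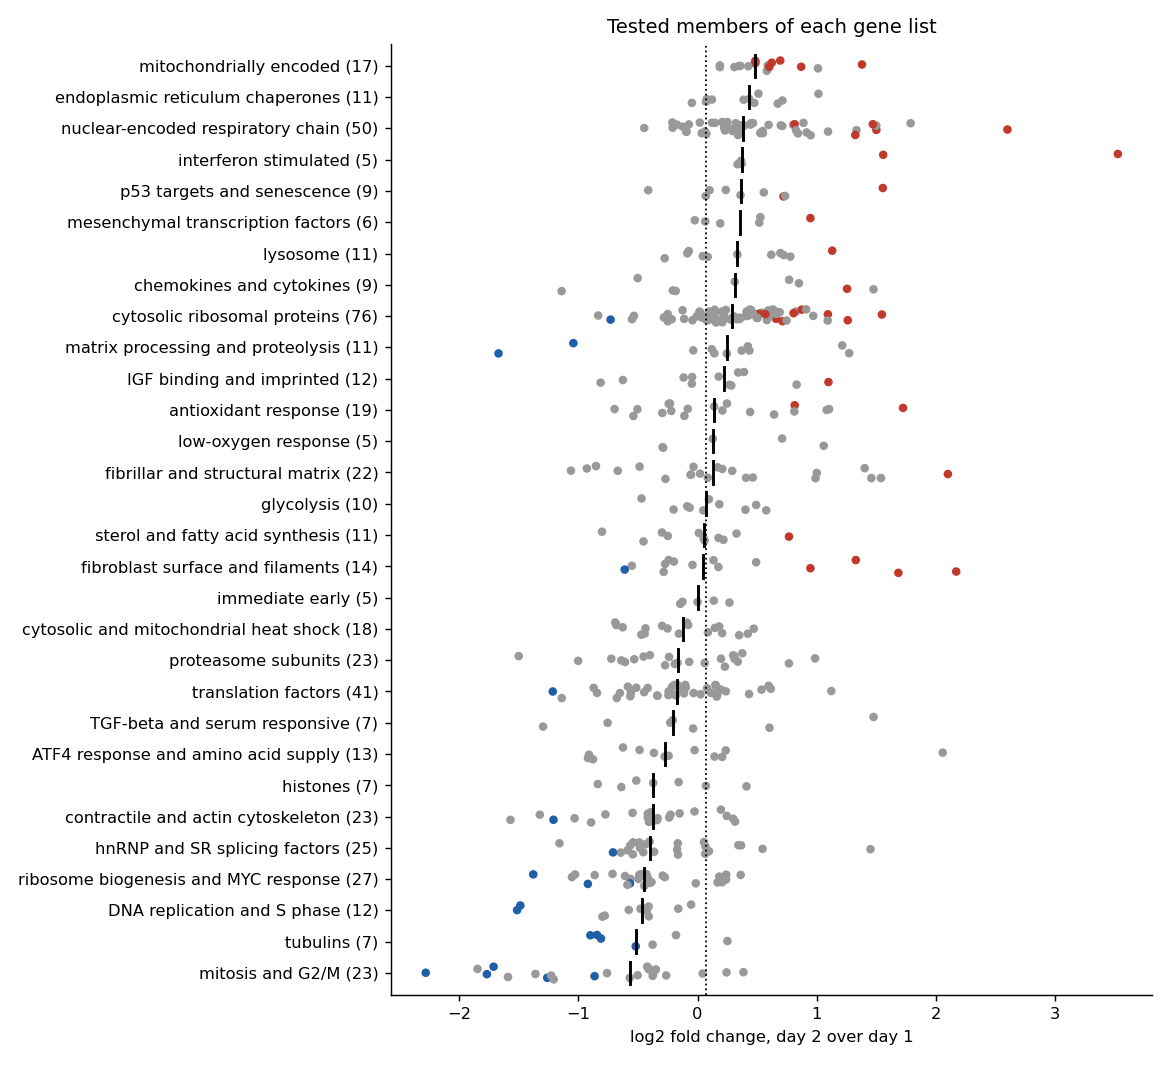
Log2 fold change from day 1 to day 2 (x axis) of each tested member of the gene lists with 5 or more tested members (y axis, number of members in brackets). Red and blue points are genes called higher and lower, grey points were not called, black bars are list medians and the dotted line is the median of all tested genes, 0.07; the lists run from mitosis and G2/M at -0.57 to mitochondrially encoded genes at 0.49.

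Of 23 tested members of the mitosis and G2/M list, 5 were called lower and none higher, 20 were fitted below 0, and the median was -0.57. Birc5 (chr11:117849251-117855743, build GRCm38) encodes survivin, a subunit of the chromosomal passenger complex, and stood at 322, 296 and 389 on day 1 and 159, 102 and 56.7 on day 2 in normalised CPM. All day 2 libraries were below all day 1 libraries (-1.71 ± 0.37, adjusted p = 0.00066). Ccna2, which encodes cyclin A2, measured 345, 355 and 252 on day 1 and 85.9, 204 and 104 on day 2, again without overlap (-1.26 ± 0.36, adjusted p = 0.015). Anln encodes the cytokinetic ring protein anillin and had 92.0, 107 and 149 on day 1 and 49.1, 14.6 and 9.45 on day 2, that is 26 UMIs on day 1 and 6 on day 2, and was the gene with the largest fall among those called (-2.28 ± 0.64, adjusted p = 0.015). Cenpf, a kinetochore protein, measured 161, 225 and 80.1 on day 1 and 36.8, 73.0 and 28.4 on day 2 and also separated the days (-1.77 ± 0.55, adjusted p = 0.034), although the end of its transcript matches other transcripts closely. Top2a, the topoisomerase that resolves sister chromatids, had 322, 462 and 595 on day 1 and 245, 350.3 and 208 on day 2. Here the highest day 2 library lay above the lowest day 1 library, so the days overlapped while each replicate fell (-0.86 ± 0.25, adjusted p = 0.022). Birc5 kept its call without any single library (adjusted p up to 0.033, without Day01 replicate 3). Ccna2 and Cenpf each lost theirs without Day01 replicate 1, Day01 replicate 2, Day02 replicate 1 or Day02 replicate 3 (adjusted p up to 0.31). Top2a lost its call without Day02 replicate 1, Day02 replicate 3 or Day01 replicate 3 (up to 0.25) and Anln without Day02 replicate 2, Day02 replicate 3 or Day01 replicate 3 (up to 0.14). Across these alternatives the list held 1 to 4 lower calls and no higher one, and its median stayed below 0. When replicate 3 was left out of both day 1 and day 2, neither the mitosis list nor the tubulins held a call. Without the replicate block Birc5 and Anln kept their calls, and Ccna2, Top2a and Cenpf lost theirs (adjusted p up to 0.11).

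The stretch of 250 bases before the start of 4 of these genes is shown because late cell cycle genes are known for 2 promoter elements: the cell cycle genes homology region (CHR), searched as TTTGAA or TTTAAA, and the CCAAT box, both on either strand. Capitals mark these letters. RefSeq sequences (GRCm38.p6) matched 6 of the 7 genes called lower in the mitosis and replication lists; Ccna2 had no entry.
Birc5 (chr11:117848987-117849236, plus strand): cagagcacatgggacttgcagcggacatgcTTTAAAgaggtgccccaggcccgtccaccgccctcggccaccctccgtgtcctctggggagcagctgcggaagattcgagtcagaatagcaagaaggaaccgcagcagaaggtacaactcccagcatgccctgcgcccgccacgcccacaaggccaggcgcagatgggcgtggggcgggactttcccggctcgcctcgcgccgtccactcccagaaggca
Cenpf (chr1:189688087-189688336, minus strand): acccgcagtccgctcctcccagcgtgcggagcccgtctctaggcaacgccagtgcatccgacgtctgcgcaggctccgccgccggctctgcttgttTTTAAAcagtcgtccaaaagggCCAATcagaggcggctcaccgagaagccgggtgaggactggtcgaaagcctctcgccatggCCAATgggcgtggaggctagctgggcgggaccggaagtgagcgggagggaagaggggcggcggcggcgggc
Top2a (chr11:99024190-99024439, minus strand): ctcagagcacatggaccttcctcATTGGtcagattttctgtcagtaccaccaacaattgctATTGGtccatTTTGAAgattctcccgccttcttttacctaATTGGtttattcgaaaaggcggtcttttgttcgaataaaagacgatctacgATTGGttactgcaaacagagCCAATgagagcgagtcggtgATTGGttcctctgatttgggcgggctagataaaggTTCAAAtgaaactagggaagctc
Anln (chr9:22389207-22389456, minus strand): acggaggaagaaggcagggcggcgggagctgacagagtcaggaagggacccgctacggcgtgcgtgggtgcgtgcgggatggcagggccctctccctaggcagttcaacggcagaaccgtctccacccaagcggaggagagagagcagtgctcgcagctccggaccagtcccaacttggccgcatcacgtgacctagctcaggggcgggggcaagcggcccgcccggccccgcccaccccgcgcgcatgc
The Top2a stretch held 6 CCAAT boxes and 2 CHR matches, the Cenpf stretch 2 and 1, the Birc5 stretch no CCAAT box and 1 CHR match, and the Anln stretch neither. Of 32851 RefSeq stretches of this length, 25.2% held a CHR match, 33.8% a CCAAT box and 8.78% both. A match describes the letters and is not a measured site.

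All 12 tested members of the replication and S phase list were fitted below 0 (median -0.46), with 2 called lower. These were Dnmt1, the maintenance DNA methyltransferase, and Uhrf1, which brings DNMT1 to newly copied DNA. Dnmt1 measured 115, 225 and 240.4 on day 1 and 85.9, 146 and 9.45 on day 2 in normalised CPM. Replicate 3 fell most, and the days overlapped through Day01 replicate 1 (-1.51 ± 0.46, adjusted p = 0.028). Uhrf1 measured 92.0, 249 and 114 on day 1 and 12.3, 117 and 47.3 on day 2, with an overlap through Day02 replicate 2 (-1.49 ± 0.48, adjusted p = 0.045). Both rest on few UMIs (45 and 18 for Dnmt1, 35 and 14 for Uhrf1 on days 1 and 2), and both calls were lost without Day01 replicate 2, Day01 replicate 3, Day02 replicate 1 or Day02 replicate 3 (adjusted p up to 0.43). Outside the lists, Pclaf, a PCNA-binding factor of replication, measured 414, 639 and 447 on day 1 and 221, 350.3 and 236 on day 2 and did not overlap (-0.93 ± 0.26, adjusted p = 0.014). Its call was lost without Day02 replicate 1, Day01 replicate 2 or Day02 replicate 3 (up to 0.19). None of the 3 calls was kept without the replicate block (adjusted p up to 0.21). Summed over the replication list, the libraries held 2324, 2948 and 2587 normalised CPM on day 1 and 1423, 2073 and 1418 on day 2. The summed mitosis list gave 4854, 4723 and 4728 on day 1 and 2846, 3240.4 and 2589.9 on day 2. Both sums were lower in each day 2 library than in each day 1 library.

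Tubulins, the subunits of microtubules, were lower in 4 of 7 tested members (median -0.52), with none higher. Tubb5 measured 3359, 3646 and 2645 on day 1 and 2355, 2394 and 1985 on day 2 in normalised CPM, with no overlap (-0.52 ± 0.15, adjusted p = 0.023). Tuba1b had 506, 734 and 962 on day 1 and 368, 409 and 444 on day 2 (-0.90 ± 0.22, adjusted p = 0.0031). Tuba1a and Tuba1c changed by -0.84 and -0.81. The ends of the 3 alpha tubulin transcripts are at least 95% identical to one another over 150 bases or more, so their reads could be split among them and their calls are not separate. The Tuba1b call was lost without Day01 replicate 3 alone (adjusted p = 0.11). Tubb5 and Tuba1c lost theirs without Day02 replicate 1, Day02 replicate 2 or Day01 replicate 2 and Tuba1a without Day02 replicate 1, Day01 replicate 2 or Day02 replicate 3 (up to 0.17). With no replicate block Tuba1b was called and the other 3 were not (adjusted p up to 0.43).

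Acta2 (chr19:34241090-34255590), smooth muscle actin, marks activated fibroblasts, and measured 1955, 2391 and 1901 on day 1 and 687, 861 and 1144 on day 2 in normalised CPM. The days were far apart in each replicate (-1.21 ± 0.20, adjusted p = 4.3e-06), and the call held without any single library (adjusted p up to 0.0013) and without the replicate block. Of the 23 tested genes of the contractile and actin list, 19 were fitted below 0 with a median of -0.37, yet Acta2 was the one called. The summed list stood at 16449, 17318 and 16475 on day 1 and 11726, 11736 and 14122 on day 2.

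Few matrix genes were called, with Lox and Timp1 lower and Col3a1 higher. Lox, the lysyl oxidase that crosslinks collagen, measured 230.1, 213 and 137 on day 1 and 123, 43.8 and 18.9 on day 2 (-1.67 ± 0.51, adjusted p = 0.033), and Timp1, an inhibitor of matrix metalloproteinases, 414, 367 and 309 on day 1 and 184, 146 and 179.6 on day 2 (-1.04 ± 0.32, adjusted p = 0.034). Both were without overlap and were the 2 lower calls among 11 tested genes of matrix processing, whose median was 0.25. Col3a1, a fibrillar collagen, went the other way with 23.0, 35.5 and 45.8 on day 1 and 98.1, 161 and 227 on day 2 and 8 against 43 UMIs (2.10 ± 0.53, adjusted p = 0.0045). It was the single call among 22 tested structural matrix genes (median 0.13), beside 3.9% of all tested genes called higher. Vim, the mesenchymal intermediate filament, measured 1656, 1669 and 1328 on day 1 and 1116, 1036 and 898 on day 2 and was lower without overlap (-0.61 ± 0.17, adjusted p = 0.016). Of 14 tested genes of the fibroblast surface list, Vim was the lower call while Cdh11, Ly6a, Ly6c1 and S100a4 were higher. Cdh11, a mesenchymal cadherin, rose from 138, 142 and 126 to 429, 321 and 302 (1.33 ± 0.34, adjusted p = 0.0064). Hmga2, a chromatin protein of embryonic mesenchyme, measured 1518, 2189.9 and 1294 on day 1 and 1104, 1212 and 851 on day 2 (-0.67 ± 0.19, adjusted p = 0.014). Of these, Cdh11 lost its call without Day01 replicate 3 (adjusted p = 0.073), Hmga2 without Day02 replicate 1 or Day01 replicate 2 (up to 0.14), Col3a1 without Day02 replicate 3 or Day01 replicate 3 (up to 0.071) and Vim without Day02 replicate 1, Day01 replicate 2 or Day02 replicate 3 (up to 0.075). Lox lost its call without any one of 4 libraries (Day01 replicates 1 and 2, Day02 replicates 2 and 3, up to 0.32) and Timp1 without any but Day01 replicate 3 (up to 0.12). The S100a4 call was lost without Day01 replicate 2, Day01 replicate 3 or Day02 replicate 3 (up to 0.37). Without the replicate block Col3a1, Cdh11, Ly6a and Ly6c1 kept their calls, and Lox, Timp1, Vim, Hmga2 and S100a4 lost theirs (adjusted p up to 0.37).

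The ribosome biogenesis and MYC response list had 27 tested members, 3 lower, none higher, 21 fitted below 0 and a median of -0.45. Ncl, the main nucleolar phosphoprotein, measured 1955, 1693 and 1786 on day 1 and 1337, 1109 and 1200.4 on day 2 in normalised CPM, with no overlap (-0.57 ± 0.16, adjusted p = 0.015). Ddx21, a nucleolar helicase, had 391, 166 and 137 on day 1 and 61.3, 87.6 and 85.1 on day 2 and was highest in Day01 replicate 1 (-1.38 ± 0.42, adjusted p = 0.028). Hspd1, the mitochondrial chaperonin, had 989, 592 and 527 on day 1 and 331, 409 and 321 on day 2 with the same library highest (-0.92 ± 0.24, adjusted p = 0.0073). Without Day01 replicate 1 the calls of Ddx21 and Hspd1 were lost (adjusted p = 0.29 and 0.078); without Day02 replicate 1 they were lost as well, as was Ddx21 without either other day 2 library. Ncl lost its call without Day02 replicate 2 or Day02 replicate 3 (up to 0.075), and no member was called without the replicate block (adjusted p up to 0.08). In the translation factor list, Eif4ebp1, the eIF4E-binding repressor, was the single call of 41 tested genes (-1.21), and in the splicing factor list Srsf2, an SR protein, was the single call of 25 (-0.71). The Eif4ebp1 call was lost without Day01 replicate 1, Day01 replicate 3, Day02 replicate 2 or Day02 replicate 3 (up to 0.23) and the Srsf2 call without Day02 replicate 1, Day01 replicate 2 or Day01 replicate 3 (up to 0.3), and neither was kept without the block (adjusted p up to 0.37). Ppia, the proline isomerase cyclophilin A, measured 552, 402 and 698 on day 1 and 184, 161 and 321 on day 2 (-1.26 ± 0.26, adjusted p = 0.00044) and was the lower gene whose call held in each of the 17 alternatives. Its transcript end matches 25 other annotated genes, so reads could be split among its copies.

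The 12 largest falls held 4 further named genes. Smc5, of the SMC5/6 complex of chromosome maintenance, measured 115, 94.7 and 195 on day 1 and 36.8, 58.4 and 0 on day 2 in normalised CPM (-2.23 ± 0.63, adjusted p = 0.015). Rbm8a, of the exon junction complex, had 138, 118 and 91.6 on day 1 and 24.5, 58.4 and 9.45 on day 2 (-1.94 ± 0.60, adjusted p = 0.034). Myo1c, an unconventional myosin, had 138, 154 and 126 on day 1 and 49.1, 58.4 and 9.45 on day 2 (-1.94 ± 0.61, adjusted p = 0.037). In these 3 the days did not overlap and Day02 replicate 3 was lowest. Snrpa1, of the U2 spliceosomal particle, had 184, 237 and 80.1 on day 1 and 36.8, 43.8 and 56.7 on day 2, also without overlap (-1.73 ± 0.49, adjusted p = 0.015). Without Day02 replicate 3 the calls of Smc5, Rbm8a and Myo1c were lost (adjusted p up to 0.32). Smc5 and Myo1c lost theirs without Day01 replicate 3 too, Rbm8a, Myo1c and Snrpa1 without Day01 replicate 2 or Day02 replicate 1, Rbm8a without Day01 replicate 1 and Snrpa1 without Day02 replicate 2. Without the replicate block Snrpa1 kept its call, while Smc5, Rbm8a and Myo1c lost theirs (adjusted p up to 0.1). Of the other members of the 12, E030024N20Rik is a pseudogene model whose end matches those of Ppia and of Gm10123 and Gm6061, also among the 12, and Gm2115 changed by -1.68.

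**Figure D2:**
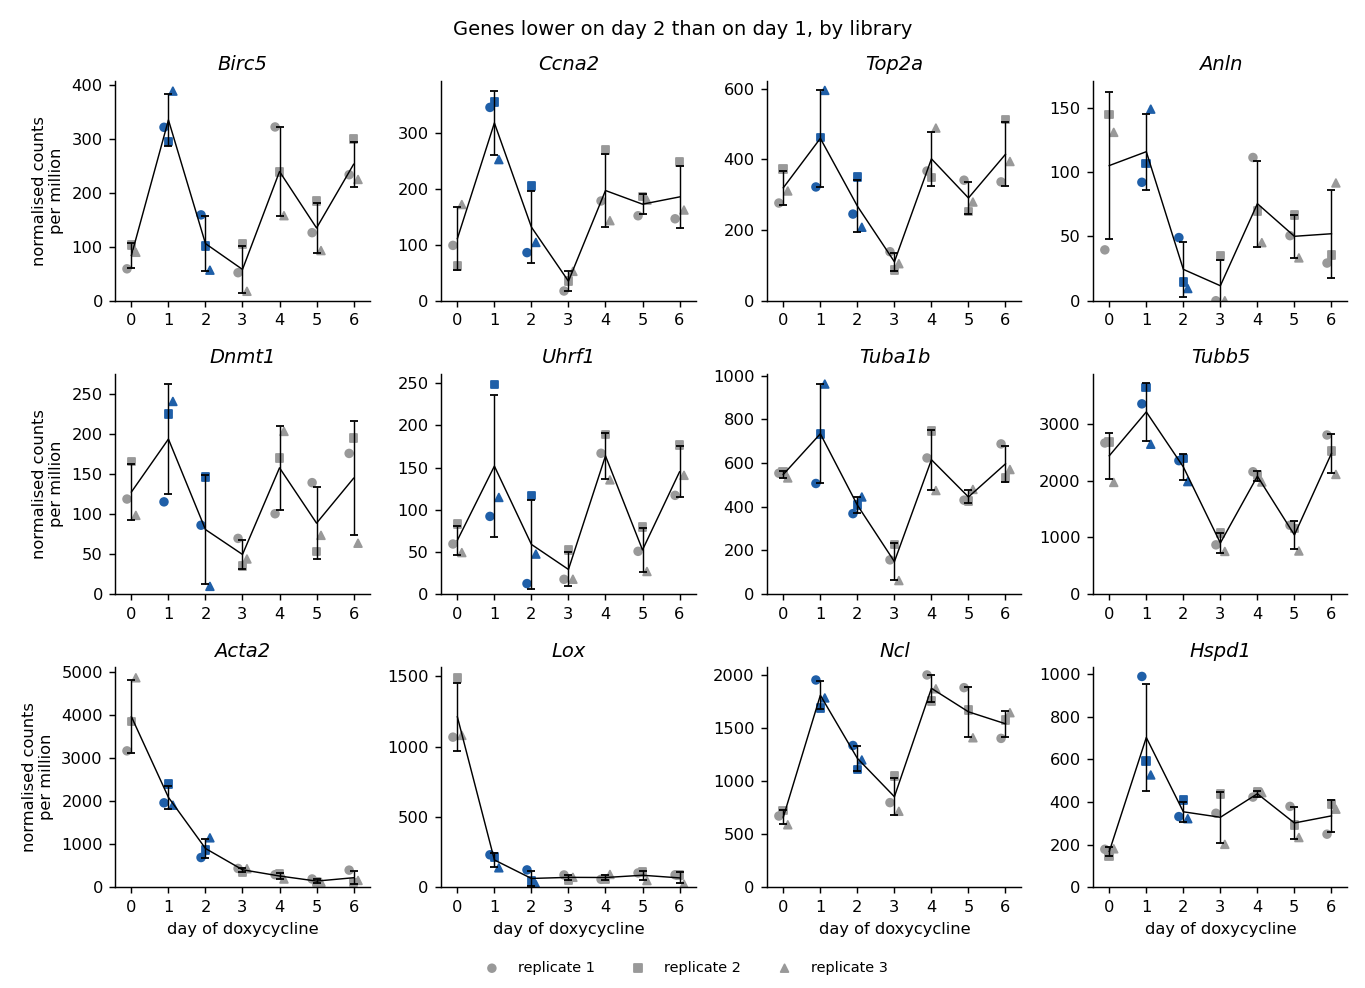
Normalised CPM (y axis, linear, from 0) of 12 genes called lower on day 2 than on day 1, by day of doxycycline (x axis). Circles, squares and triangles are replicates 1, 2 and 3, blue marks the 2 days compared, and the line joins daily means with SD bars (n = 3); Acta2 was lower on each day from day 0 (3954) to day 5 (141) and stood at 219 on day 6, whereas Birc5 was at 84.2 on day 0, peaked on day 1 and was at 253 on day 6.

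Mitochondrially encoded genes were the group with the largest share of calls among lists of 10 or more tested genes. All 17 tested members were fitted above 0, 8 were called higher and none lower, and the median was 0.49. The 16S ribosomal RNA gene mt-Rnr2 measured 26134, 16714 and 20723 on day 1 and 59034, 52139 and 52734 on day 2 in normalised CPM. All day 2 libraries were far above all day 1 libraries (1.38 ± 0.16, adjusted p = 5.3e-12). The 12S gene mt-Rnr1 had 18911, 16821 and 24809.9 on day 1 and 36330.3, 31952 and 41958 on day 2, without overlap (0.87 ± 0.15, adjusted p = 1.2e-05). Among protein-coding genes, mt-Co3, a subunit of cytochrome oxidase, had 5337, 4770.5 and 5163 on day 1 and 8034, 7853 and 8753 on day 2 (0.69 ± 0.13, adjusted p = 2.9e-05), and mt-Cytb, of complex III, 5981, 4605 and 5427 on day 1 and 8586, 7722 and 8233 on day 2 (0.62 ± 0.13, adjusted p = 0.00024). These 4 calls held without any single library (adjusted p up to 0.048). The other 4, mt-Nd4, mt-Nd5, mt-Co1 and mt-Atp6, rose by 0.48 to 0.60 and were each lost without Day01 replicate 2 or Day01 replicate 3 (up to 0.21). In mt-Co1 and mt-Atp6 leaving out Day02 replicate 3 had the same effect, and in mt-Atp6 so did Day01 replicate 1. These last 4 calls also ended without the replicate block (adjusted p up to 0.44), and the first 4 did not. Summed, the mitochondrial genes stood at 111831, 93421 and 100316 normalised CPM on day 1 and 181750.0, 167774 and 172682 on day 2, with 148741 on average on day 0 and 240447 on day 3. Day 1 was thus the lowest of these 4 days, and the 3 libraries of each day lay closer together than the means of days 1 and 2. The part of the scaling factors in these differences was not tested beyond the alternatives given, in which the list median stayed between 0.36 and 0.56.

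Nuclear-encoded subunits of the respiratory chain were higher in 5 of 50 tested members, lower in none, with 42 fitted above 0 and a median of 0.38. Cox7a2l, which takes part in joining respiratory complexes, measured 115, 71.0 and 103 on day 1 and 343, 277 and 179.6 on day 2 (1.47 ± 0.38, adjusted p = 0.0064). Atp5l, a subunit of the ATP synthase, had 115, 59.2 and 103 on day 1 and 294, 131 and 312 on day 2 (1.5 ± 0.38, adjusted p = 0.0048). Cox8a, of cytochrome oxidase, had 391, 367 and 321 on day 1 and 552, 701 and 624 on day 2 (0.81 ± 0.22, adjusted p = 0.013). The days did not overlap in these 3, and Ndufb11 and Ndufa6 of complex I completed the calls. Without Day01 replicate 2 the calls of Cox7a2l, Atp5l, Cox8a and Ndufb11 were lost, and without Day01 replicate 3 those of Atp5l, Cox8a and Ndufa6 (adjusted p up to 0.42). Ndufb11 lost its call without any one of the 6 libraries (up to 0.27). Leaving out Day02 replicate 1 ended the calls of Cox7a2l, Atp5l and Ndufa6, and leaving out Day02 replicate 2 that of Cox8a. Without the replicate block Cox7a2l alone of the 5 was called (adjusted p of the others up to 0.1).

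Cytosolic ribosomal proteins were higher in 10 of 76 tested members and lower in 1, with 64 fitted above 0 and a median of 0.29. The summed list stood at 24089 to 32286 normalised CPM on day 1 and 31120 to 41883 on day 2, ranges that overlap. Rplp1, of the ribosomal stalk, measured 1196, 1184 and 1122 on day 1 and 2146, 2131 and 2165 on day 2 in normalised CPM. The libraries of each day lay within a narrow range, far from the other day (0.87 ± 0.16, adjusted p = 2.9e-05). Rps4x had 1265, 1326 and 1236 on day 1 and 2048, 2335 and 2212 on day 2 (0.80 ± 0.16, adjusted p = 0.00018). Both held without any single library (adjusted p up to 0.032), and both share sequence with annotated copies elsewhere. Rpl15 was the member that was lower (-0.73), a call lost without Day02 replicate 1, Day01 replicate 2 or Day02 replicate 3 (up to 0.31). It was also lost without the replicate block (adjusted p = 0.23). The list held 3 to 9 higher calls when single libraries were left out, 5 with RLE scaling and 3 without the block.

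**Figure D3:**
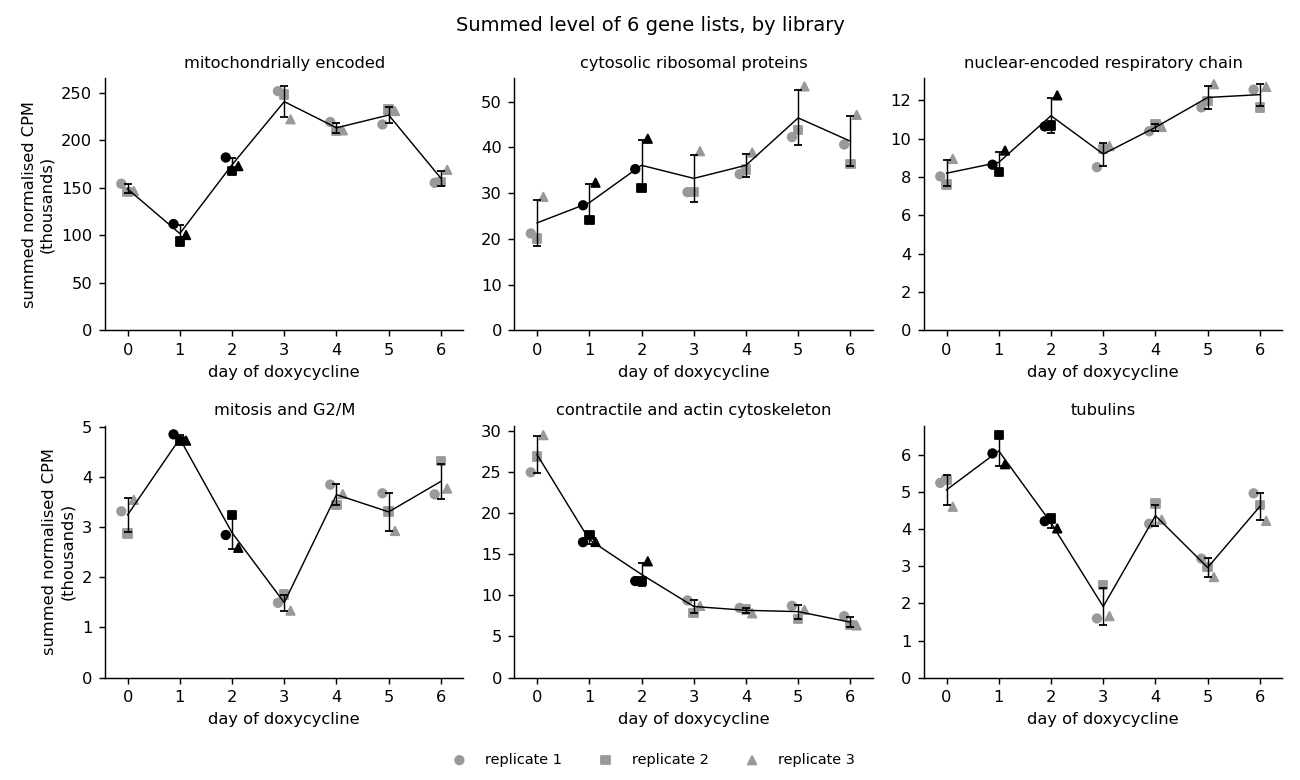
Summed normalised CPM (y axis, linear, from 0, scaled as its label states) of all members of 6 gene lists in each library, by day of doxycycline (x axis). Circles, squares and triangles are replicates 1, 2 and 3, black marks the 2 days compared, and lines join means with SD bars (n = 3); mitochondrially encoded genes averaged 101856 normalised CPM on day 1 and 174069 on day 2, mitosis genes 4769 and 2892, and tubulins 6118 and 4179.

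Akr1b3, Mgst1 and Prdx1, which encode detoxifying or redox enzymes, were higher on day 2. Akr1b3 (chr6:34302434-34317478), aldose reductase, measured 322, 178 and 366 on day 1 and 1067, 467 and 1257 on day 2 in normalised CPM. Replicate 2 was lowest on both days and rose like the others (1.72 ± 0.25, adjusted p = 6.8e-08). Mgst1 (chr6:138140316-138156755), a membrane glutathione transferase, had 161, 94.7 and 103 on day 1 and 491, 423 and 567 on day 2, with a wide gap between the days (2.16 ± 0.33, adjusted p = 2.4e-07). Prdx1, a peroxiredoxin, had 667, 829 and 1030.4 on day 1 and 1214, 1503 and 1777 on day 2 (0.81 ± 0.18, adjusted p = 0.0013). All 3 calls held without any single library (adjusted p up to 0.04), whereas that of Prdx1 was lost without the block (adjusted p = 0.10). Akr1b3 and Prdx1 were the 2 calls among 19 tested genes of the antioxidant list, whose median was 0.14; Mgst1 is not in it.

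Ly6a (chr15:74994877-74998031), known as Sca-1, measured 322, 249 and 252 on day 1 and 736, 978 and 860.1 on day 2 in normalised CPM, with no overlap (1.68 ± 0.24, adjusted p = 6.8e-08), and held in each of the 17 alternatives. Its neighbour Ly6c1 had 23.0, 71.0 and 11.4 on day 1 and 209, 175 and 132 on day 2 (2.17 ± 0.54, adjusted p = 0.0038). Ifitm2, an interferon-induced membrane protein, had 92.0, 82.9 and 114 on day 1 and 196, 321 and 340.3 on day 2 (1.56 ± 0.35, adjusted p = 0.0014) and Ifitm1 had 1 UMI on day 1 and 18 on day 2. The Ifitm pair were the 2 calls among 5 tested interferon-stimulated genes. Ifitm2 kept its call without any single library (adjusted p up to 0.037), Ly6c1 lost it without Day01 replicate 3 (adjusted p = 0.14), and Ifitm1 without Day01 replicate 1, Day01 replicate 2 or Day02 replicate 1 (up to 0.19). Without the replicate block Ifitm1 lost its call (adjusted p = 0.068) and the other 3 genes kept theirs.

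Sfrp1, Inhbb and Gas1 are described here as single genes, the last 2 chosen after their values were seen. Sfrp1 (chr8:23411502-23449632), a secreted Wnt antagonist, measured 207, 107 and 68.7 on day 1 and 331, 452 and 388 on day 2 in normalised CPM, without overlap (1.76 ± 0.34, adjusted p = 0.00011). Inhbb, the beta B subunit of activin and inhibin, had 184, 178 and 218 on day 1 and 552, 394 and 510.4 on day 2 (1.31 ± 0.28, adjusted p = 0.00067). Gas1, a co-receptor for Hedgehog ligands that is high in growth-arrested fibroblasts, had 92.0, 142 and 68.7 on day 1 and 282, 379.5 and 274 on day 2 (1.57 ± 0.36, adjusted p = 0.0014). In all 3 the days were separate, and Sfrp1 and Inhbb kept their calls without any single library (adjusted p up to 0.036), while Gas1 lost it without Day01 replicate 3 (adjusted p = 0.069). The chemokine Cxcl5 measured 253, 142 and 355 on day 1 and 613, 511 and 595 on day 2 and was the single call of 9 tested cytokine genes (1.25 ± 0.29, adjusted p = 0.0021). It lost its call without Day01 replicate 2 (adjusted p = 0.098) and without the replicate block (adjusted p = 0.11), where Sfrp1, Inhbb and Gas1 kept theirs.

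Further higher calls came from several lists, beside 3.9% of all tested genes called higher. The p53 list gave 2, the lysosome list 1 of 11 tested genes and the sterol and fatty acid list 1 of 11. The list of IGF binding and imprinted genes gave 1 of 12. Ccng1, a p53 target, measured 989, 568 and 836 on day 1 and 1447, 1284 and 1134 on day 2 in normalised CPM (0.72 ± 0.18, adjusted p = 0.0058) and Trp53inp1, another, had 46.0, 23.7 and 80.1 on day 1 and 110.4, 131 and 198 on day 2 (1.55 ± 0.50, adjusted p = 0.042). They were the 2 calls among 9 tested p53 and senescence genes, 8 of which were fitted above 0. Ctsd, the lysosomal protease cathepsin D, had 276, 426 and 332 on day 1 and 785, 671 and 898 on day 2, with no overlap (1.13 ± 0.23, adjusted p = 0.00034). The imprinted growth-regulating RNA H19 had 391, 710.2 and 607 on day 1 and 1288, 1314 and 1125 on day 2 (1.10 ± 0.24, adjusted p = 0.00076). Both Ctsd and H19 held without any single library (adjusted p up to 0.045), but H19 lost its call without the replicate block (adjusted p = 0.16), where Ctsd kept it (adjusted p = 0.01). Ccng1 did not hold without Day01 replicate 2 (adjusted p = 0.26), and Trp53inp1 not without any one of the 6 (up to 0.32), and neither held without the block (adjusted p up to 0.16). Smaller rises near the threshold were those of Ccnd2 (cyclin D2, 0.50), Tfrc (the transferrin receptor, 0.78), Scd2 (a fatty acid desaturase, 0.77) and Tcf4 (a bHLH transcription factor, 0.95), each lost with RLE scaling and with no block. Ccnd2 and Tfrc lost their calls without any one of the 6 libraries (adjusted p up to 0.31), Tcf4 without Day01 replicate 2, Day01 replicate 3, Day02 replicate 2 or Day02 replicate 3 (up to 0.32) and Scd2 without Day01 replicate 1, Day01 replicate 2 or Day02 replicate 3 (up to 0.21).

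**Figure D4:**
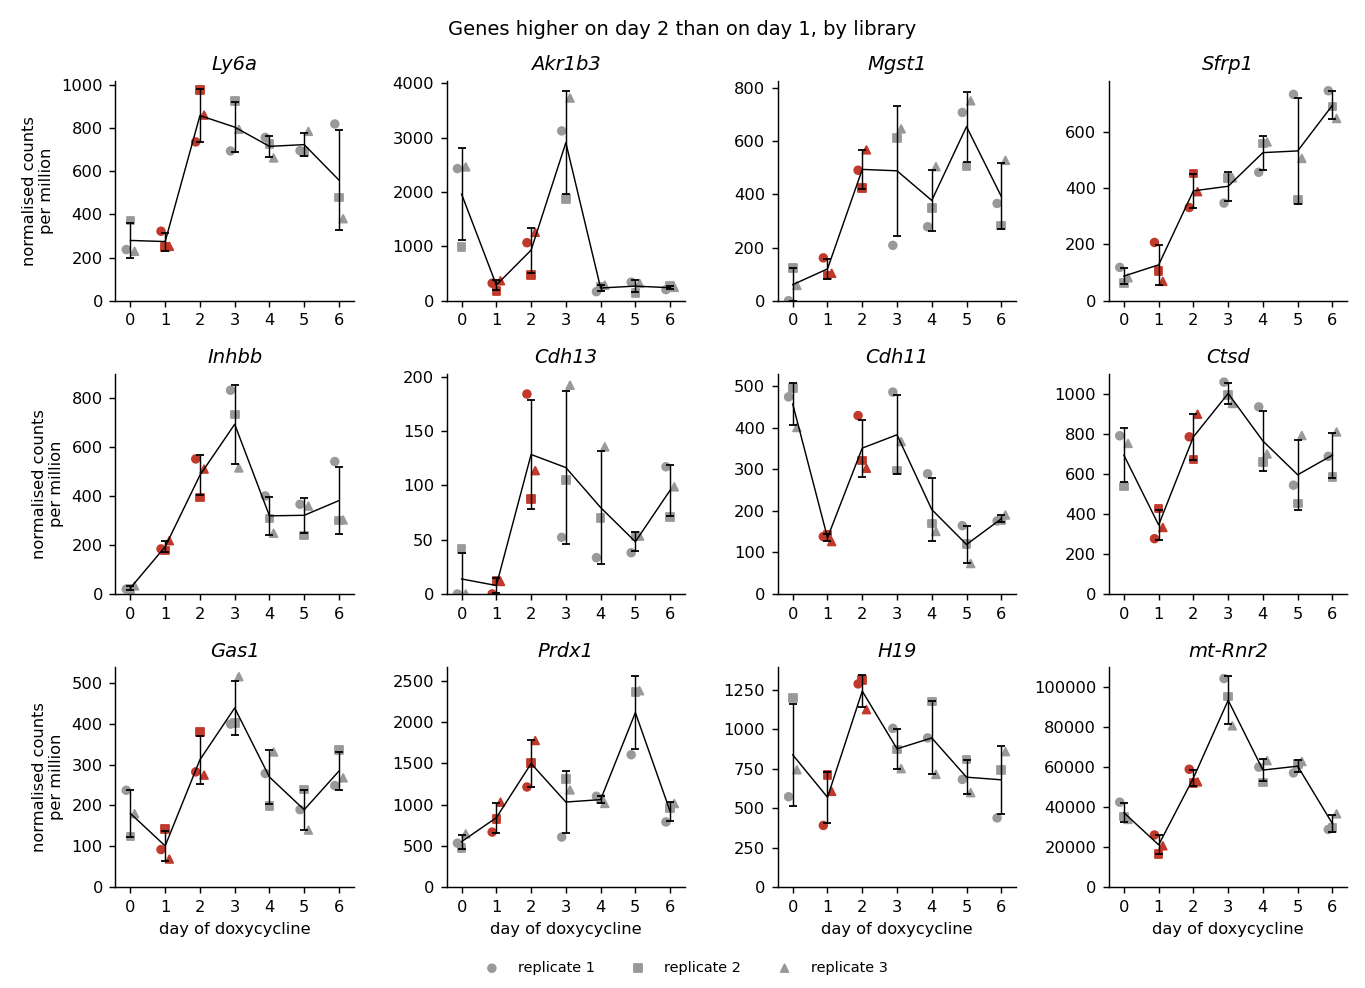
Normalised CPM (y axis, linear, from 0) of 12 genes called higher on day 2 than on day 1, by day of doxycycline (x axis). Circles, squares and triangles are replicates 1, 2 and 3, red marks the 2 days compared, and the line joins daily means with SD bars (n = 3); Akr1b3, Ctsd and Cdh11 had been higher on day 0 (1961, 693 and 457) than on day 1, whereas Inhbb and Mgst1 had been lower (24.4 and 60.4).

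The largest fitted changes belonged to genes with almost no UMIs on day 1, and their ratios are given with exact 95% intervals for counting error. Ano3, an anoctamin membrane protein, had 1 UMI on day 1 and 25 on day 2, a ratio of 18.2 (2.98 to 748) after allowing for library size. Its 3 day 2 libraries measured 135, 131 and 47.3 normalised CPM, and its call held in each of the 16 alternatives that gave it an adjusted p. Ano3 overlaps Muc15 on the opposite strand. Cdh13, the GPI-anchored T-cadherin, had 2 and 33 UMIs, a ratio of 12 (3.07 to 103). For Ifitm1 the ratio was 13.1 (2.07 to 546). Gm24447, a model on chromosome 15 (chr15:93234363-93234700) whose end matches the small nuclear RNA gene Rn7sk among others, had 2 and 29 UMIs, a ratio of 10.6 (2.67 to 91.4), and lost its call without Day01 replicate 2 (adjusted p = 0.068). Ano3, Cdh13 and Gm24447 kept their calls without the replicate block. Ndufa6 had 3 and 24 UMIs, a ratio of 5.83 (1.77 to 30.2). In all 5 the 3 day 2 libraries were above the 3 day 1 libraries, but the intervals are wide, so the size of these changes is poorly known. The other 3 of the 12 largest rises not described above, Gm10718, Gm10721 and Gm17535, belong to 1 family of gene models on chromosome 9 and changed by 1.79, 1.78 and 1.73. Their transcript ends match other members of the family, and Gm17535 lost its call without Day01 replicate 2 (adjusted p = 0.15).

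Most genes that define the goal of reprogramming could not be tested at this depth. Of 26 epithelial and 27 pluripotency genes, 1 each passed the filter on low counts, and neither was called. Reads from the end of the lentiviral cassette were not analysed here. Among the reprogramming factors, Pou5f1 had 1 UMI on day 1 and none on day 2, Sox2 none on either day, Klf4 3 and 5, and Myc 3 and 1. Cdh1 had 0 and 3 UMIs, Epcam and Sall4 none on both days, Brca1 2 and 1, Bard1 0 and 3, and Wdr5 13 and 7. None of these named genes passed the filter on low counts, and a count of 0 allows up to 3 UMIs. Later in the course Cdh1 had 9 UMIs on day 5 and 13 on day 6, and Epcam 5 and 9. The summed epithelial list gave 68.7 to 154 normalised CPM on day 1 and 110.4 to 321 on day 2, ranges that overlap. Lists with no call in either direction included glycolysis (10 tested, median 0.07), a heat shock list (18, -0.12), proteasome subunits (23, -0.17), the ATF4 response (13, -0.28), TGF-beta and serum response genes (7, -0.21) and endoplasmic reticulum chaperones (11, 0.43). The heat shock list does not hold Hspd1, which stands in the ribosome biogenesis list and was lower, and 2 of its own genes were called lower with RLE scaling.

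The daily means of some of these genes over days 0 to 3 are set side by side as a description, since the genes were chosen on the day 1 and day 2 libraries. Birc5 went from a mean of 84.2 on day 0 to 336 on day 1, 106 on day 2 and 58.1 on day 3, and Ncl from 661 to 1811, 1216 and 854. Acta2 had lower means at each step, from 3954 to 2082, 897 and 404. Inhbb had higher means at each step, from 24.4 to 193, 485 and 694, and Akr1b3 went from 1961 to 289, 930.4 and 2906.

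Day 3 and day 0 share no library with the step, and their comparison was fitted for the same genes. Of the 117 higher genes, 52 (44.4%) were also called higher on day 3 than on day 0 and none lower. Over all tested genes, 5.5% were called higher and 5.73% lower. Fitted above 0 were 98 of the 117, beside 1529 of all 3002 tested genes. Of the 41 lower genes, 18 (43.9%) were called lower on day 3 than on day 0 and none higher. Fitted below 0 were 32 of the 41, beside 1473 of all tested genes. Genes with near-identical transcript ends were counted one by one. Sfrp1 (2.24, adjusted p = 1.8e-07), Mgst1 (3.13, adjusted p = 3.4e-12), Inhbb (4.51, adjusted p = 6.1e-20), Ly6a (1.59, adjusted p = 9.3e-08) and mt-Rnr2 (1.33, adjusted p = 1.6e-12) were higher, and Acta2 (-3.29, adjusted p = 1.1e-31), Lox (-4.08, adjusted p = 2.0e-16), Tubb5 (-1.43, adjusted p = 3.4e-12) and Hmga2 (-1.96, adjusted p = 1.9e-17) lower. Other genes did not pass that test: Ncl stood at 0.37, adjusted p = 0.25, H19 at 0.07, adjusted p = 0.89 and Cdh11 at -0.24, adjusted p = 0.68. Over the whole course, the median of the higher genes, on log2 of the mean normalised CPM plus 10, was -0.29 on day 1 relative to day 0, 0.67 on day 2 and 0.45 on day 6. The median of the lower genes was 0.61 on day 1, -0.40 on day 2, -0.89 on day 3 and 0.16 on day 4. The values of days 1 and 2 in these medians chose the genes and are a description.

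**Figure D5:**
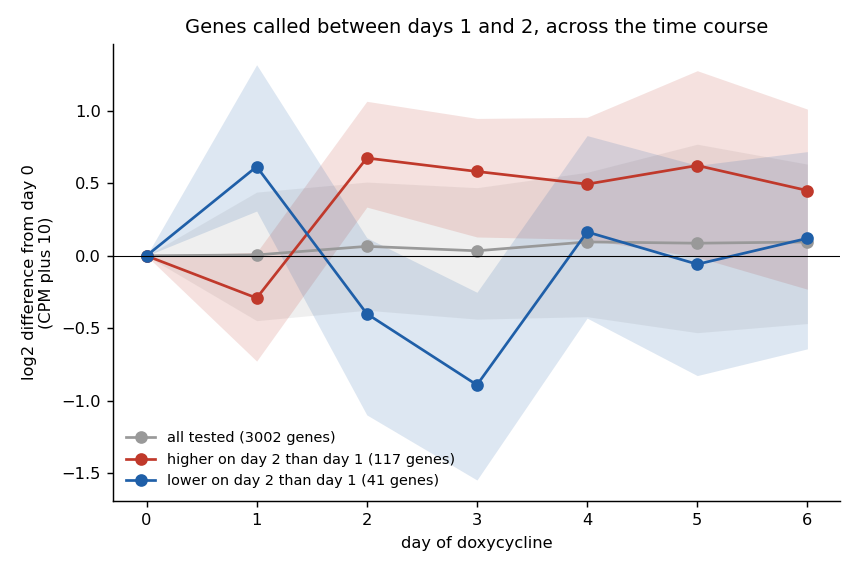
Median over genes (points and lines) and interquartile range (bands) of the difference from day 0 in log2 of the daily mean normalised CPM plus 10 (y axis), by day of doxycycline (x axis), for the 117 genes called higher (red), the 41 called lower (blue) and all 3002 tested genes (grey). Days 1 and 2 chose the coloured genes; the red median stayed between 0.45 and 0.62 from day 3 to day 6, and the blue median reached its lowest value, -0.89, on day 3.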

How the data were processed

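The authors sequenced CEL-Seq2 libraries from 100 pg of RNA in 3 pools, aligned the reads to mm10 with Bowtie2, corrected UMIs with the CEL-Seq2 pipeline against GENCODE annotation, and deposited raw UMI counts per gene. They also deposited log2-CPM values after filtering and regression of the batch, used here as an alternative.

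Column names gave each library's day, and the sample labels its pool. Counts were tested with edgeR 4.0.16 (R 4.3.3; TMM, filterByExpr, quasi-likelihood, Benjamini-Hochberg adjusted p under 0.05) in 122 libraries with condition and replicate as terms; 6 count columns and 5 log2 columns whose names fit several samples were not used. Replicate numbers mark a shared sequenced pool, which is the source of the pairing; deviations of same-numbered libraries correlated with a median r of 0.0982 over 63 pairs, against -0.0681 over 126 others, and those of days 1 and 2 by 0.0398, 0.0976 and 0.198. Normalised CPM divides a count by the library total times its TMM factor. All replicate pairs differed by more than sampling noise. Intervals cover counting error only.

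Genes were named if they were among the 12 largest changes in either direction (called, a mean of at least 50 CPM on 1 day, same sign in all replicates) or called members of gene lists (at most 6 a list). The reprogramming factors, Cdh1, Epcam, Sall4, Brca1, Bard1 and Wdr5 were named whatever their level. Pclaf, Hmga2, Ppia, Inhbb, Gas1, Rpl15, mt-Co1 and mt-Atp6 were chosen after their values were seen. The comparison and the lists were chosen with earlier results of these data known. Transcript ends were matched with BLAST 2.17.0 (400 bases, 95% identity, 150 bases). Alternatives were the size factors of DESeq2 1.42.0 (RLE) in edgeR, DESeq2 itself, limma 3.58.1 on the deposited log2 values, no filter, no block, the time course or the 2 days alone, each replicate or library left out and, chosen after seeing the data, no mitochondrial genes. On data simulated for this comparison (3002 genes), 88% and 56% of genes changed by 2 and -2 on the log2 scale were called, and 32% and 22% of those changed by 1 and -1.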

Additional observations from a re-analysis of the deposited data

How the results depend on the processing

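No called gene changed direction in any alternative. The counts for day 2 against day 1 (117 higher, 41 lower) became 76 higher with RLE scaling, 51 higher with limma on the deposited log2 values, 57 higher and 6 lower without the filter on low counts, where 30566 genes were tested, and 43 and 8 without the replicate block. Leaving out a replicate or a single library gave 40 to 95 higher and 10 to 39 lower genes. For day 3 against day 0 (165 higher, 172 lower), there were 92 and 94 without the filter and 91 and 113 without the replicate block, and 63 to 141 higher and 69 to 176 lower with a replicate or library left out. The causes were not tested, including the larger number of genes tested without the filter and the fewer libraries in the left-out settings. Of 17 alternatives, 11 of the 117 and 1 of the 41 calls held in each one that gave the gene an adjusted p. That was 16 for Ano3 (none with DESeq2) and for mt-Co3, mt-Rnr1 and mt-Rnr2 (none where mitochondrial genes were left out), and 17 for the others. Depth also limits the comparison: changes of 1 on the log2 scale were mostly missed in simulated data, and 1 UMI weighs between 9.45 and 23.0 normalised CPM.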

Other observations

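Of 405 tested gene models named Gm or by a clone, 41 were higher and 5 lower on day 2 than on day 1, with a median of 0.28, beside 117 higher (3.9%), 41 lower (1.37%) and a median of 0.07 over all 3002 tested genes. Among all calls, 53 of the 117 higher and 12 of the 41 lower genes shared a near-identical transcript end with another annotated gene, so reads could have been split between them. The share of such genes among all tested genes was not computed, and nothing is read from these counts.

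One family of models lay side by side on chromosome 9 (chr9:3000922-3038316, GRCm38). Of its 11 annotated members 10 were tested and 8 were higher on day 2, by 1.27 to 1.79 on the log2 scale, beside the 3.9% of all tested genes that were called higher. Each of the 8 has a transcript end nearly identical to those of 3 to 8 other genes, mainly of the same family, so reads could be split among them and the calls are not separate. Without Day01 replicate 2, the library with the lowest share, the calls of Gm10715, Gm10719, Gm10722, Gm11168 and Gm17535 were lost (adjusted p from 0.068 to 0.15) and those of Gm10717, Gm10718 and Gm10721 were kept. The 8 genes and Gm10720 together took 0.0641% to 0.226% of UMIs on day 1 and 0.300% to 0.377% on day 2, without overlap. Their share was 0.153% to 0.243% on day 0 and 0.124% to 0.179% on day 3. The 8 were called on days 1 and 2, so the shares of these days are a description.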
